A study of Mus musculus with 2 samples.

Results

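The 34 genes described here encode enzymes that clear peroxides and superoxide, or that keep protein thiols and glutathione in their reduced form. They were chosen by name and not by a rule on measured values, but with earlier results of these data known. By enzyme class they are 7 peroxiredoxin genes (with sulfiredoxin, Srxn1, which repairs peroxiredoxins), 6 glutathione peroxidases, 4 catalase and superoxide dismutase genes, 5 thioredoxin system genes, 3 glutaredoxins, 4 genes of glutathione synthesis and recycling, 2 genes of NADPH supply and 3 other redox enzymes. They are 34 of the 21535 protein-coding genes that could be placed with a strand, and each is set beside that whole.

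The series is an H3K4me3 ChIP-seq experiment on MEL, an immortalized mouse erythroleukaemia line, with 1 group and no other treatment. Both samples were exposed to 2% dimethyl sulfoxide (DMSO), an agent that drives these cells towards red cell maturation, for 5 days, and they are labelled biological replicates 1 and 2. Both labels carry the same biosample identifier, so the spread between replicates may be technical. Cells without DMSO were not analysed here, so no value below is a change with DMSO and no test between groups was possible. Replicate 1 held 48026 peaks and replicate 2 held 46950, without read counts, so the depth behind a peak is unknown. Of 12 erythroid marker genes, 11 had a peak of both replicates at the 5' end, and the twelfth, Gata1, had one inside the gene. Mean signal values of the 11, on the authors' scale, ran from 2.88 in Hba-a2 to 27.7 in Sptb. Their median was 9.33, against 13.2 over all genes with such a peak. Of 10 markers of other blood lineages, Ptprc and Lyz2 had one at the 5' end, and Spi1, Cd4 and Cd79a had one over the gene span, against 47.1% of all genes at the 5' end and 57.9% over the span.

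H3K4me3 is a histone mark of promoters, at genes that are transcribed or poised for it, and sits on the nucleosomes that flank a transcription start. Peroxiredoxins, glutathione peroxidases and catalase reduce hydrogen peroxide, superoxide dismutases produce it from superoxide, and thioredoxin and glutathione pass on electrons that come from NADPH. Erythroid cells handle large amounts of iron, heme and haemoglobin, all sources of oxidants, and mice that lack Prdx2 develop haemolytic anaemia. Many of these genes are known targets of NRF2, a transcription factor that binds the antioxidant response element, where it competes with the repressor BACH1.

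Sequences are shown first for the members whose RefSeq promoter, the 250 bases before to 50 bases after a listed start, holds the core of that element. The core searched was TGACNNNGC on both strands. It was found at a listed start of 7 of the 29 members in the RefSeq table (24.1%), against 14.8% of the 17492 protein-coding genes in it and 16.8% of the 8307 of these that carried the mark. With 29 genes the 95% Wilson interval of the members' share ran from 12.2% to 42.1%, which covers counting error only and holds both other shares. The core is in capitals, 5' to 3' on the strand that holds it, with 12 bases on each side. Positions are 1-based on GRCm38.p6, the assembly behind mm10. The Txnrd1 window belongs to a start inside the gene and was added after its values were seen. The Pgd window belongs to the listed start at 149166082, also inside the gene. No core was found at the listed Pgd start at the outer 5' end, 149166705.
Srxn1, chr2:152105540-152105572, minus strand: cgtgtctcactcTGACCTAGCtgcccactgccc
Gclm, chr3:122245411-122245443, minus strand: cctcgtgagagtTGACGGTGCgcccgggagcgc
Prdx1, chr4:116685454-116685486, minus strand: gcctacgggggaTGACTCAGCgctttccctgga
Pgd, chr4:149166059-149166091, minus strand: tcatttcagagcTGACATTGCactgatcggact
Txnrd1, chr10:82859102-82859134, minus strand: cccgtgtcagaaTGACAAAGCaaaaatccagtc
Sod1, chr16:90220694-90220726, minus strand: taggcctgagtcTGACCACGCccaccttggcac
G6pdx, chrX:74428917-74428949, plus strand: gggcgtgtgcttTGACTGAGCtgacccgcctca
The Prdx1 core overlaps a match to the AP-1 motif TGACTCA, which 3 of the 29 members (10.3%) and 5.40% of all genes in the table held. Relative to the listed start and in the gene's direction, the most upstream base of the core lay at -134 in Gclm, -133 in Prdx1, -92 in Txnrd1, -57 in G6pdx and -56 in Sod1. It lay after the start, at 28 in Srxn1 and, for the inner start of Pgd, at 3. Such a match is a description of letters and not a binding site. Of the other motifs, CCAAT was held by 13 of 29 members (44.8%) against 42.3% of all genes, TATAAA by 5 (17.2%) against 14.8%, and CACGTG by 2 (6.90%) against 8.91%.

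Complete promoters are shown for the marked members with the highest and the lowest enrichment value, Gclm and Nqo1, and for the outer and an inner start of Txnrd1, a pair chosen after its values were seen. Each runs 5' to 3' on the gene's strand, with every CpG dinucleotide in capitals.
Gclm, chr3:122245307-122245606, plus strand: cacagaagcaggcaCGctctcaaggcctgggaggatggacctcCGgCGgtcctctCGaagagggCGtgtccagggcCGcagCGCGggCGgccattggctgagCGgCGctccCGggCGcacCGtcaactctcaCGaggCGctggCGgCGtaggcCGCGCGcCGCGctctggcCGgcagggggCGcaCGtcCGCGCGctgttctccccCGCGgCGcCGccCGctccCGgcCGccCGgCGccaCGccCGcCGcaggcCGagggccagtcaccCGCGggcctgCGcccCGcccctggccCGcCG
Nqo1, chr8:107403156-107403455, minus strand: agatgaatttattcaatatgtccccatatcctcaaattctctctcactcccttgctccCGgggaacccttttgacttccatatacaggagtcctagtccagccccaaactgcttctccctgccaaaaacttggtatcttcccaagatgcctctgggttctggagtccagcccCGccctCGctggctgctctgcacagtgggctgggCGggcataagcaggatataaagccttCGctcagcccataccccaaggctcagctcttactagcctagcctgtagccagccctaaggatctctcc
Txnrd1, chr10:82833701-82834000, plus strand: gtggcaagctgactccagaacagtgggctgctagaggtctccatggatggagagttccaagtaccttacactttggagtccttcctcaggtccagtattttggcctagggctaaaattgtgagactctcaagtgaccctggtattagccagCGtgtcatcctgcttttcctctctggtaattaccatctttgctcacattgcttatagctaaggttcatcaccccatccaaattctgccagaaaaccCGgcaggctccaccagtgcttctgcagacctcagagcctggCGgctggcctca
Txnrd1, chr10:82858956-82859255, plus strand: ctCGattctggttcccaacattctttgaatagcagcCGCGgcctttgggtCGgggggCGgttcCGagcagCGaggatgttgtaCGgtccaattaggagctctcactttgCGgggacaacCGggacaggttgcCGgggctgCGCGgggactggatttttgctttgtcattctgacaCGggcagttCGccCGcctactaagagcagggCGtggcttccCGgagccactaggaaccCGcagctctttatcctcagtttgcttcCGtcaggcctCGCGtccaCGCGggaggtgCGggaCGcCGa
The Gclm promoter holds 48 CpG at a GC content of 79.7%, and the Nqo1 promoter holds 5 CpG at 53.7%. The outer Txnrd1 promoter holds 3 CpG and the inner one 27. Marked members had a median GC content of 60.5% over 22 promoters and a CpG observed to expected ratio of 0.682, against 61.3% and 0.791 over 8307 marked genes. Unmarked members had 56.3% and 0.547 over 7 promoters, against 50.3% and 0.259 over 9185 unmarked genes. Genes were grouped by the rule given below for the outermost 5' end, and the promoter used was that of the nearest listed start. These can lie apart. The Prdx4 promoter used, at 155338460, had peaks nearby though Prdx4 counts as unmarked. The Hmox2 promoter used, at 4741613, had none within 1000 bp though Hmox2 counts as marked.

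A gene was called marked when a peak of each replicate overlapped the 1000 bp on either side of its outermost annotated 5' end. By that rule 25 of the 34 redox genes were marked (73.5%), against 47.1% of all genes. In 1 replicate alone, no member and only 246 of all 21535 genes had such a peak. Over the whole gene span with 1000 bp added at each end, 29 of 34 members (85.3%) had a peak of both replicates, against 57.9% of all genes. The 9 unmarked members fell into a group of 4 with peaks inside the gene, Txnrd1, Gpx4, Prdx4 and Msra, and a group of 5 with no peak of either replicate, Gpx2, Gpx3, Gpx7, Gpx8 and Sod3. By cell compartment, 17 of 21 cytosolic and all 6 mitochondrial enzymes were marked. Each gene was given a single compartment from textbook knowledge, with Gpx4 and Msra counted as cytosolic. Over the gene span, 20 of the 21 cytosolic enzymes had a peak of both replicates. None of the 5 enzymes of the secretory pathway or the outside of the cell was marked, and of these Prdx4 had a peak inside the gene.

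The enrichment value below is the authors' own signal value per peak, on a scale that the sources used here do not state. Each gene takes the highest peak of its window in a replicate, and means are over the 2 replicates with their SD (n = 2 throughout). A domain is the widest run of peaks that touches the window, with gaps of up to 1000 bp joined. The marked members had a median enrichment value of 13.9, against 13.2 over the 10133 marked genes. The members' median was 13.7 in replicate 1 and 13.9 in replicate 2, against 12.3 and 13.7 for all marked genes. Members' domains had a median width of 2636 bp, at 2722 bp and 2717 bp in the 2 replicates, against 2258 bp over all marked genes, at 2260 bp and 2245 bp. Of 25 marked members, 14 (56.0%) lay above the median value of all marked genes, 17 (68.0%) above the median width and 10 (40.0%) above both. The highest 10% of marked genes held 4 members by mean value (16.0%) and 6 by mean width (24.0%), of which 0 and 4 were in it in each replicate taken alone.

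**Figure D1:**
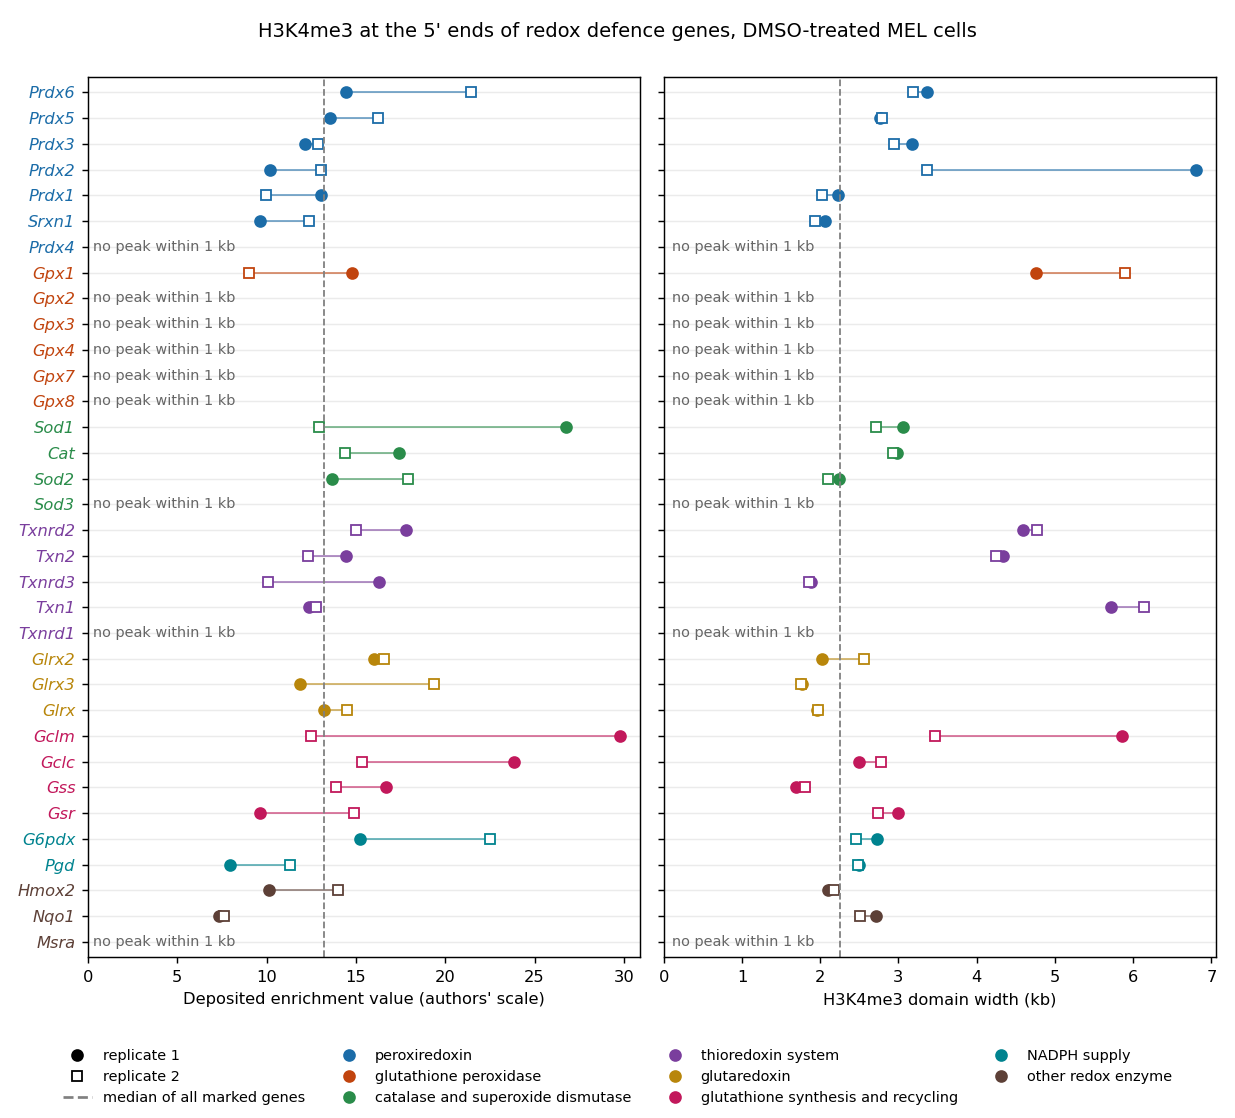
The 34 members are listed by enzyme class, with the deposited enrichment value at the 5' end on the left axis (authors' scale) and the domain width in kb on the right axis. Filled circles are replicate 1, open squares replicate 2, and the dashed lines the medians of all marked genes, 13.2 and 2258 bp. The replicates lie close together in width, apart from Prdx2 and Gclm, and further apart in value, most of all for Gclm (29.8 and 12.5) and Sod1 (26.8 and 12.9).

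The peroxiredoxins, which reduce peroxides through a reactive cysteine, were marked at 6 of 7 genes, and their enrichment values had a median of 12.1 with domains of 2920 bp at the median. Prdx6, whose protein also has phospholipase activity, was highest, with 14.4 in replicate 1 and 21.4 in replicate 2 (mean 17.9 ± 4.96). Prdx5, found in mitochondria and peroxisomes, had 13.5 and 16.2 (14.9 ± 1.91). The mitochondrial enzyme Prdx3 had 12.1 and 12.9 (12.5 ± 0.515), with the closest replicates among the class members marked at the outer 5' end. Prdx2, one of the most abundant proteins of red cells, stood below the median of all marked genes in value and above it in width. It had values of 10.2 and 13.0 (11.6 ± 2.04) and domains of 6801 and 3361 bp (5081 ± 2432), wider than 98.9% of marked genes in replicate 1 and 82.3% in replicate 2. In replicate 1 the domain ran 4641 bp upstream of the start at chr8:84969622, across further peaks that in replicate 2 were not joined to it. Prdx1, the general cytosolic peroxiredoxin, had values of 13.0 and 9.96 (11.5 ± 2.19). Srxn1, which reverses overoxidation of the peroxiredoxin cysteine, had 9.62 and 12.4 (11.0 ± 1.94) and was the lowest marked gene of this class.

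Of the 6 glutathione peroxidases, which spend glutathione to reduce peroxides, Gpx1 alone was marked at its 5' end. This cytosolic enzyme, the main glutathione peroxidase of red cells, had values of 14.8 and 9.01 (11.9 ± 4.07), so the replicates lay on either side of the median. Its domains were wide, at 4756 and 5897 bp (5327 ± 807), above 96.9% of marked genes. As joined runs they spanned the whole gene (chr9:108339080-108340342) in both replicates, although no peak covered the 5' end. The strongest peaks began 219 and 232 bp into the gene. From 2361 bp in replicate 1 and 2212 bp in replicate 2, past the gene's far end, the runs held weak peaks. Their values were 2.69 to 5.90 in replicate 1 and 2.11 to 3.77 in replicate 2. Gpx4, which reduces lipid peroxides, had no peak at the outer 5' end and is described with the inner starts. Gpx2, the gastrointestinal enzyme, Gpx3, the plasma enzyme, and Gpx7 and Gpx8, both of the endoplasmic reticulum, had no peak of either replicate over the gene or within 1000 bp of it. Their listed promoters were unequal in CpG content, with 0 CpG in Gpx2, 13 in Gpx3, 19 in Gpx7 and 13 in Gpx8.

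The intracellular superoxide dismutases and catalase were all marked, whereas Sod3, the secreted superoxide dismutase, had no peak. Sod1, the cytosolic copper and zinc enzyme, had 26.8 in replicate 1 and 12.9 in replicate 2 (19.8 ± 9.81). Its mean exceeded 95.4% of marked genes, but this rests on replicate 1, where it exceeded 99.2%, while in replicate 2 it exceeded 42.0%. The pooled set of the authors gave Sod1 a value of 26.5. Cat, the peroxisomal enzyme that splits hydrogen peroxide, had 17.4 and 14.4 (15.9 ± 2.14), but 11.6 in the pooled set. Its domains of 2979 and 2934 bp differed little. Sod2, the mitochondrial manganese enzyme, had 13.7 and 17.9 (15.8 ± 3.01).

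The thioredoxin system had the widest domains of the classes with more than 1 marked gene, with a median of 4490 bp over its 4 marked members. Txn1, the cytosolic thioredoxin, had domains of 5713 and 6142 bp (5928 ± 303). At the mean they were the widest of all members and wider than those of 98.3% of marked genes. In replicate 1 the domains of Prdx2 (6801 bp) and Gclm (5864 bp) were wider. The highest Txn1 values of 12.4 and 12.8 (12.6 ± 0.290) lay close to each other, with a mean just below the median of all marked genes. They belong to different peaks, upstream of the start in replicate 1 and on the gene side in replicate 2. The upstream peak had 12.4 and 10.7 in the replicates, and the gene-side peak 9.27 and 12.8. The mitochondrial pair was wide as well. Txnrd2, the mitochondrial reductase, had 4598 and 4774 bp (4686 ± 124) and values of 17.8 and 15.0 (16.4 ± 1.95). Txn2, the thioredoxin it reduces, had 4338 and 4249 bp (4294 ± 62.9) and values of 14.4 and 12.3 (13.4 ± 1.48). Txnrd3, a thioredoxin and glutathione reductase known from testis, was narrow instead, at 1884 and 1853 bp. Its values were 16.3 and 10.1 (13.2 ± 4.42). With a window of 500 bp the mean was 8.40, since the strongest replicate 1 peak begins at chr6:89644671, beyond 500 bp from the start at 89643988.

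All 3 glutaredoxins, which use glutathione to reduce disulphides, were marked, with narrow domains of 1962 bp at the median. Glrx2, the mitochondrial form, had values of 16.0 and 16.6 (16.3 ± 0.398). Glrx3, which takes part in handling iron and sulphur clusters, had 11.9 and 19.4 (15.6 ± 5.30). Glrx, the cytosolic form, had 13.2 and 14.5 (13.9 ± 0.915), which is also the median of the marked members. The replicates of Glrx and Glrx2 lay close together, and those of Glrx3 lay far apart.

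Glutathione synthesis and recycling was marked at 4 of 4 genes, with a median value of 17.4. That median was the highest of the classes in replicate 1, at 20.3, and not in replicate 2, at 14.4, where NADPH supply reached 16.9 and the glutaredoxins 16.6. Gclm, the modifier subunit of glutamate cysteine ligase, had the highest mean of all members, with 29.8 in replicate 1 and 12.5 in replicate 2 (21.1 ± 12.2). As for Sod1, the rank rests on replicate 1, where it exceeded 99.8% of marked genes, against 37.8% in replicate 2, and the pooled set gave 14.5. The strongest Gclm peak lay at chr3:122245962-122248478 in replicate 1 and at chr3:122245643-122248448 in replicate 2, with summits 973 and 1638 bp into the gene. Gclm domains measured 5864 and 3466 bp (4665 ± 1696), since the peaks furthest upstream were joined in replicate 1, and in replicate 2 lay beyond the joining gap. Gclc, the catalytic subunit of the same ligase, had 23.8 and 15.3 (19.6 ± 6.02), above the median of all marked genes in both replicates. Gss, which adds glycine in the last step of synthesis, had 16.7 and 13.9 (15.3 ± 1.98), but 9.80 in the pooled set. Its domains of 1692 and 1808 bp were the narrowest of the members at the mean (1750 bp). Gsr, which reduces oxidised glutathione, had 9.64 and 14.9 (12.3 ± 3.72), and a mean of 7.50 when the peak had to cover the 5' end itself.

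Both genes of the oxidative pentose phosphate pathway, which supplies NADPH, were marked, at very different levels. G6pdx, the first enzyme of the pathway, had 15.2 and 22.5 (18.9 ± 5.15), above 73.1% of marked genes in replicate 1 and 96.9% in replicate 2. Pgd, the third enzyme, had 7.97 and 11.3 (9.64 ± 2.37), below the median in both. Their domains were alike in width, at 2722 and 2457 bp for G6pdx (2590 ± 187) and 2501 and 2479 bp for Pgd (2490 ± 15.6). Nqo1, the quinone reductase best known as an NRF2 target, had the lowest value of all marked members, 7.31 and 7.60 (7.46 ± 0.208), above 7.24% of marked genes. Nqo1 was low in both replicates, yet its domains of 2713 and 2509 bp (2611 ± 144) were wider than those of 63.7% of marked genes. Hmox2, the constitutive heme oxygenase, had 10.1 and 14.0 (12.1 ± 2.74) at its outer start, chr16:4726361. Its listed RefSeq starts, at 4741613, 4756881 and 4756946, had no peak of either replicate within 1000 bp.

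**Figure D2:**
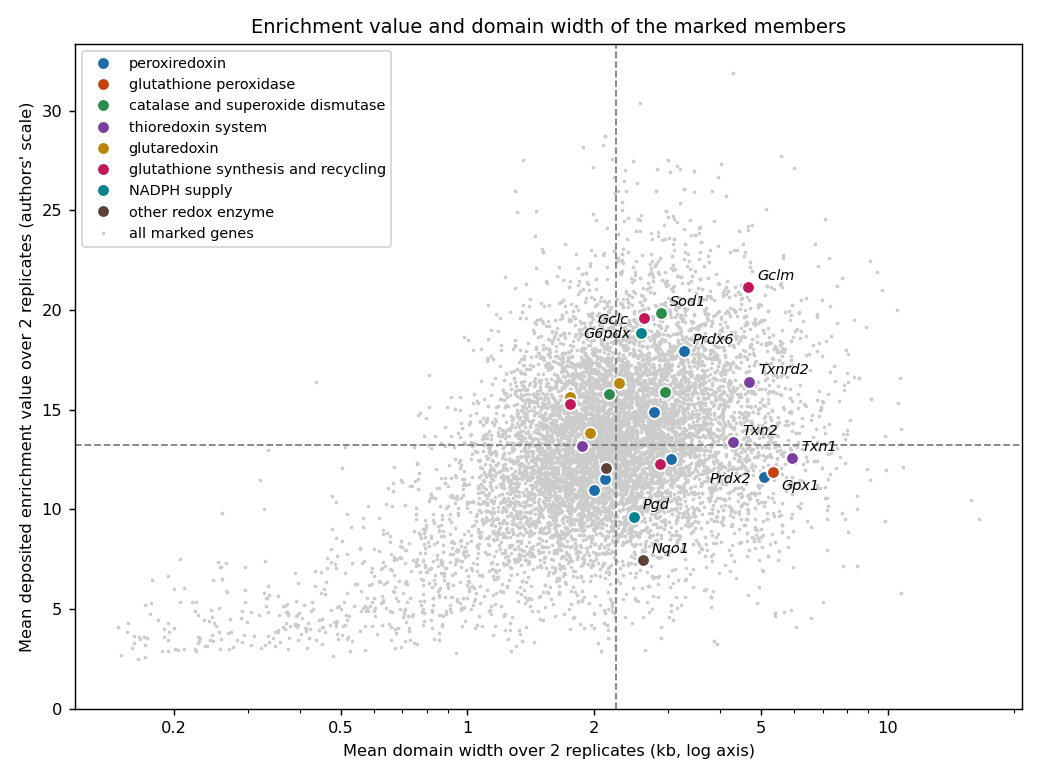
Mean enrichment value (authors' scale) against mean domain width (kb, log axis) over the 2 replicates, for the 25 marked members by class and for all 10133 marked genes in grey, with dashed lines at the medians of all marked genes. Txn1, Gpx1 and Prdx2 lie at the wide end near or below the median value, and Nqo1 is low at an intermediate width. Gclm is high and wide at the mean, but its value was 29.8 in replicate 1 and 12.5 in replicate 2. Its domains measured 5864 and 3466 bp.

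Value and width were thus only loosely linked among the members. Spearman's rho across the 25 marked members was 0.120, against 0.356 across the 10133 marked genes, as a description over genes that share the same libraries. The replicates ordered the members alike by width, with a rho of 0.928 across members and 0.930 across all marked genes. By value they ordered them less alike, with a rho of 0.215 across members and 0.520 across all marked genes. The larger value exceeded the smaller by over 1.5 times in 7 of 25 members (28.0%), against 22.5% of marked genes. Replicate 1 was the higher in 10 of 25 members (40.0%), against 35.9% of marked genes.

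**Figure D3:**
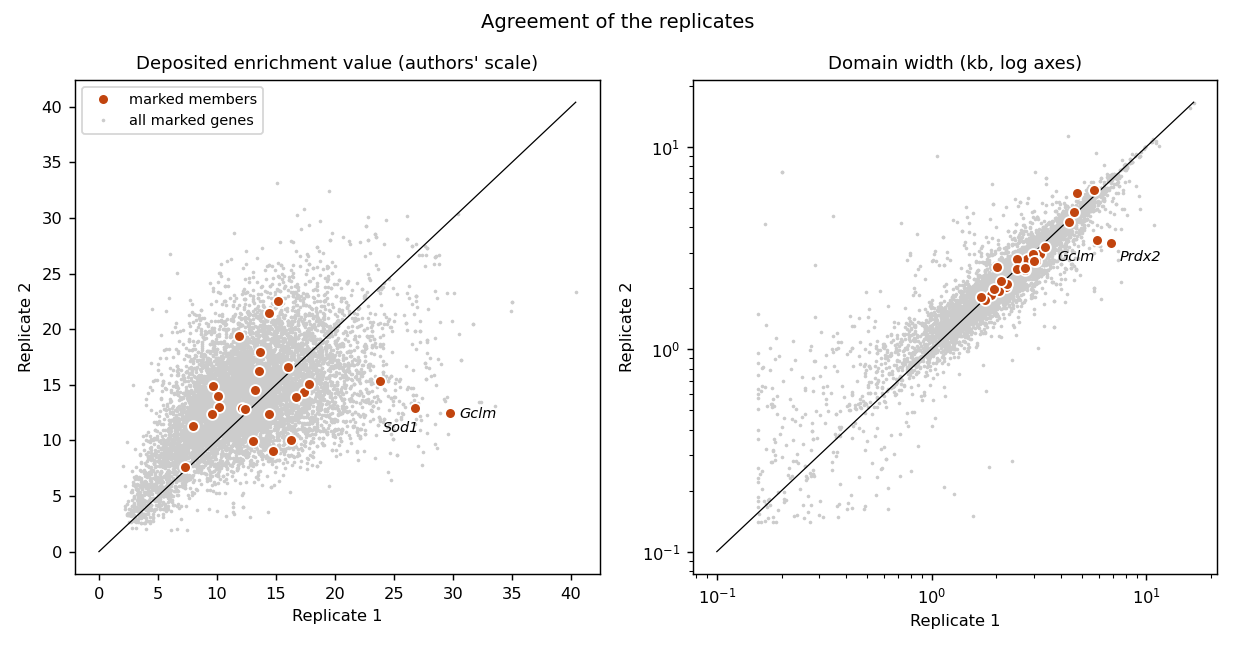
Replicate 2 against replicate 1 for the enrichment value (left, authors' scale) and the domain width (right, kb, log axes), with the 25 marked members in colour, all marked genes in grey and the line of equality. Members scatter widely in value, with Gclm and Sod1 far to the right of the line, and lie along the line in width apart from Prdx2 and Gclm.

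The peaks were often arranged around the start and not on it. In 11 of 25 marked members (44.0%) the 5' end itself was free of peaks in both replicates, with a peak on either side, against 27.2% of marked genes. These members were Prdx3, Prdx6, Gpx1, Cat, Sod2, Txn1, Txn2, Txnrd3, Glrx3, Gclm and Pgd. In another 11 (44.0%) a peak of both replicates covered the 5' end, against 42.5% of marked genes. These were Prdx2, Prdx5, Srxn1, Txnrd2, Glrx, Glrx2, Gsr, Gss, G6pdx, Nqo1 and Hmox2. In the other 3, Prdx1, Sod1 and Gclc, a peak covered it in replicate 2 alone. The strongest summit lay on the gene side of the start in both replicates in 17 of 25 members (68.0%), against 60.1% of marked genes. In G6pdx it lay upstream in both, at -944 and -928 bp, and in Nqo1 at -225 and -239 bp.

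**Figure D4:**
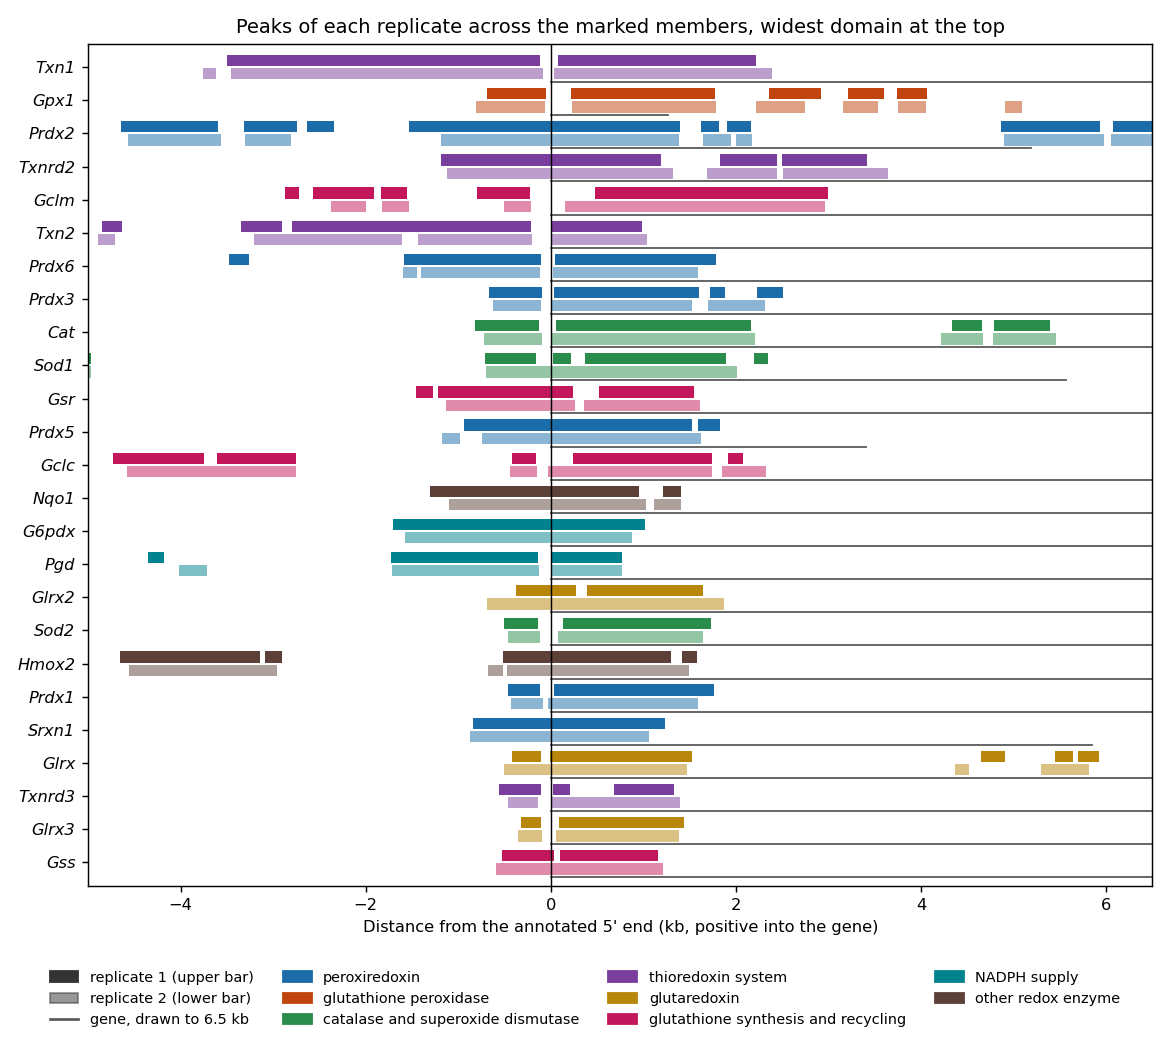
Peaks of replicate 1 (upper bar) and replicate 2 (lower bar) by distance from the annotated 5' end in kb, positive into the gene, for the 25 marked members with the widest mean domain at the top and genes as thin lines. Many members, such as Txn1, Gpx1 and Gclm, show a gap at 0 between a peak on each side, and the run of peaks upstream of Prdx2 and Gclm is broken by a gap of over 1000 bp in replicate 2 and not in replicate 1.

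At several of these members the peak or domain also holds the start of a gene on the other strand. The share of all marked genes with such a start is not given here. The 5' end of Rnaseh2a, a subunit gene of the enzyme that removes RNA from DNA, lies 24 bp from that of Prdx2, inside the strongest Prdx2 peak of both replicates. Likewise Trmt112, an activator of methyltransferases, starts 408 bp from Prdx5. The lncRNA gene AV051173 starts 423 bp from Prdx1, inside the strongest Prdx1 peak of both replicates. Another, Gm41005, starts 1183 bp from Glrx. That is inside the strongest Glrx peak of both replicates but beyond the 1000 bp window around the Glrx 5' end. Gm46822, Gm35344 and Gm46161 start 19, 32 and 58 bp from Gclm, Txn1 and Glrx2, within the domain but not within the strongest peak of both replicates. Peaks carry no strand, so the mark at these places cannot be divided between the genes.

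For 3 of the unmarked members the mark lay at a start inside the gene that the RefSeq promoter table lists. Txnrd1, the cytosolic thioredoxin reductase, spans chr10:82833951-82897724. Neither replicate had a peak at its outer start. Replicate 1 had a peak at chr10:82858481-82861718 with a value of 19.2, and replicate 2 at chr10:82859162-82861497 with 12.8, a mean of 16.0 ± 4.50 that stood above the median of all marked genes. These peaks cover the listed starts at 82859206 and 82860341. Gpx4, which begins at chr10:80047166, had its strongest peaks at chr10:80053607-80054840 and chr10:80053608-80054980, with values of 10.5 and 14.6 (12.5 ± 2.84). They cover the listed starts at 80053659 and 80054011 and begin just after the one at 80053565. The promoters of these 3 inner starts hold 26 to 31 CpG, and that of the outer start 3.

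Prdx4, the peroxiredoxin of the endoplasmic reticulum, has its outer 5' end at chrX:155342272 on the minus strand and a listed start at 155338460. Around the listed start the values were 13.4 and 13.5 (13.4 ± 0.116), the closest pair of replicates among the members with a peak. Msra, the methionine sulphoxide reductase, has no entry in the promoter table, like Prdx6, Gclc, Gsr and Sod3. Its peaks lay deep inside the gene, with summits 14669 and 15089 bp from the 5' end and values of 15.2 and 16.4. In the older set on mm9, a peak at chr14:65058718-65060659 covers the 5' end of a shorter Msra transcript of GENCODE M1 at 65059822, and the longer one at 65074740 has none. With every listed start counted beside the outer 5' end, 28 of 34 members (82.4%) had a peak of both replicates, against 49.5% of all genes. In the older set, with the 5' ends of all GENCODE M1 transcripts, 29 of 34 members (85.3%) had a peak, against 47.1% of 22238 genes. The 5 others were again Gpx2, Gpx3, Gpx7, Gpx8 and Sod3.

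**Figure D5:**
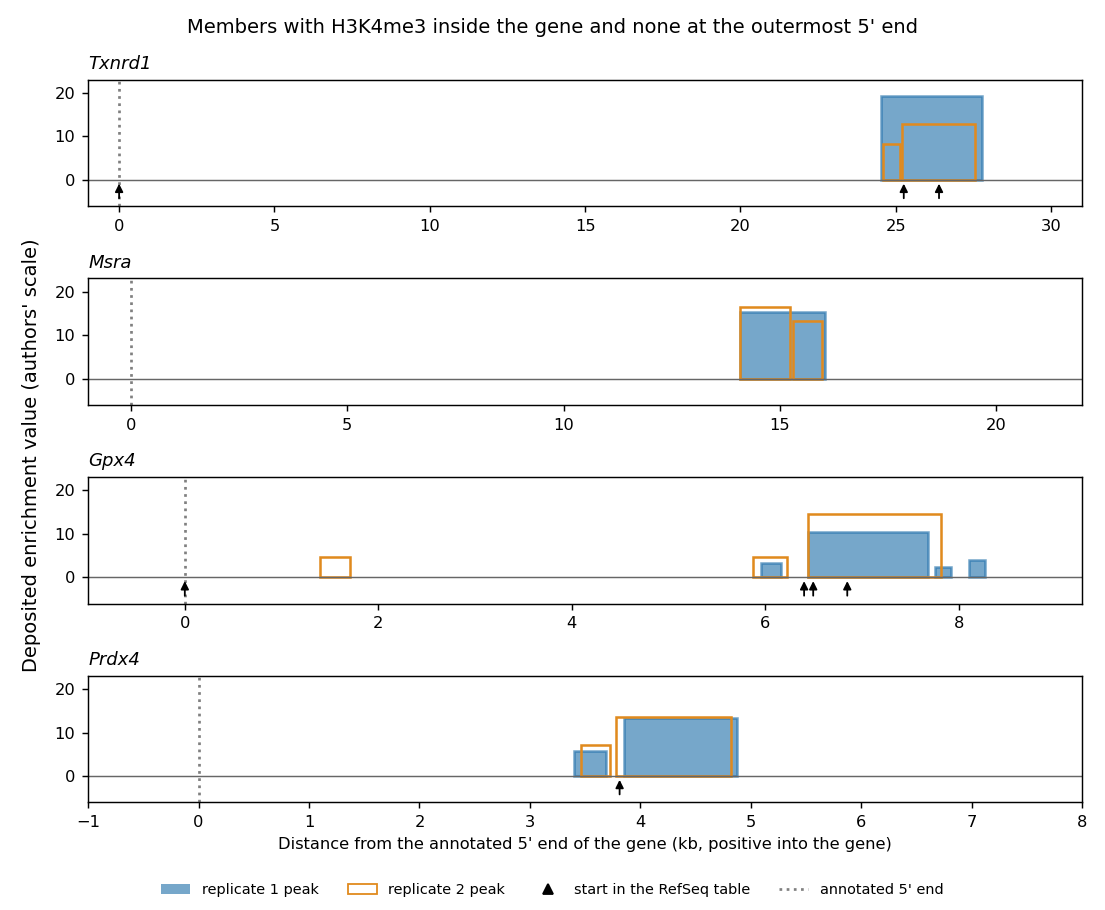
Deposited enrichment value (authors' scale) of every peak of replicate 1 (filled) and replicate 2 (outlined) by distance from the annotated 5' end in kb, for the 4 members without a peak at that end, with arrows at the starts listed by RefSeq. The strongest peaks of Txnrd1, Gpx4 and Prdx4 stand at listed inner starts, whereas Msra has no listed start.

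Further genes of the same pathways, also listed with earlier results known, were counted by the same rule. Of these, 65 of 79 (82.3%) were marked, against 47.1% of all genes, with a median value of 12.8 and a median width of 2494 bp. Of the regulators around NRF2 and BACH1, 11 of 12 were marked, Nfe2l3 being the other. Bach1, the heme-sensing repressor of antioxidant response elements, was the highest, with 18.9 and 22.1 (20.5 ± 2.22). Rbx1, a subunit of the ligase that marks NRF2 for degradation, had 20.8 and 16.7 (18.7 ± 2.87). The relatives of thioredoxin and glutaredoxin were marked at 14 of 15 genes, all but Msrb3, and the highest were Msrb1 with 13.9 and 18.8 (16.3 ± 3.43) and Nxn with 16.3 and 16.2 (16.2 ± 0.0975). The first of these repairs oxidised methionine, and the second, nucleoredoxin, is a thioredoxin relative.

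A further list of NADPH supply and the pentose phosphate pathway, which includes enzymes that make no NADPH such as Tkt and Taldo1, was marked at 10 of 11 genes, all but Idh2. Nnt, the mitochondrial transhydrogenase, had 16.8 and 20.8 (18.8 ± 2.78), and Idh1, the cytosolic isocitrate dehydrogenase, had 18.5 and 15.8 (17.1 ± 1.95). Genes of cystine and glutathione handling were marked at 7 of 11, and Slc7a11, Ggt1, Ggt5 and Hagh were not marked. Glo1, the glyoxalase that uses glutathione, had 22.1 and 20.2 (21.2 ± 1.29), and Esd, which completes formaldehyde clearance with glutathione, had 20.9 and 19.7 (20.3 ± 0.845). Both stood above most members in both replicates.

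Glutathione transferases, which join glutathione to electrophiles, were marked at 12 of 15 genes with a low median value of 11.5 and narrow domains of 1455 bp. Gstm2, Mgst1 and Gsta1 were not marked. The highest were Gstz1 with 12.3 and 14.4 (13.3 ± 1.45) and Gsta4 with 12.1 and 14.5 (13.3 ± 1.72). Of the other peroxide, quinone and heme enzymes, 11 of 15 were marked, and Gpx5, Gpx6, Oxr1 and Cyb5r3 were not. Nqo2, a quinone reductase related to Nqo1, had 21.1 and 20.2 (20.6 ± 0.638), against 7.31 and 7.60 for Nqo1. Aifm2, which protects membrane lipids through coenzyme Q, had 19.1 and 21.4 (20.2 ± 1.61).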

How the data were processed

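H3K4me3 peaks of 2 samples of 1 group were used as deposited. Each peak carries a signal value, called the enrichment value, and a p-value and q-value on a −log10 scale, all made by the authors and deposited on mm10. The scale of the signal, the alignment and calling tools with their thresholds, and how replicated peaks were defined are not given in the sources used here. Depth is unknown, so precision was taken from the spread of the 2 replicates.

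Autosomes (1 to 19) and both sex chromosomes were kept. A RefSeq table of GRCm38.p6 placed the genes and gives 1 start and 1 end per gene and no exons, so peaks were not assigned to exons, introns or untranslated regions. Strand came from the RefSeq promoter table for 17492 genes and from GENCODE M1 by symbol for 3649 and by synonym for 394, and 352 of 21887 protein-coding genes stayed without one. Of the members, 29 took their strand from the promoter table and 5 from GENCODE M1. A peak had to overlap the window by at least 1 bp. An older peak set on mm9 was compared with the GENCODE M1 transcripts of that build.

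All members are named. Of each further list, the 2 marked genes with the highest mean value are given with values. Genes sharing a member's strongest peak are named, apart from a result that is not reported here, and those sharing a domain were added after their values were seen. The members and lists were chosen with earlier results of these data known. Of 80 further genes listed, 79 had a strand. No test was made, because there is a single group. The gene and domain steps were tested on simulated peaks. Computations used Python 3.11.15, numpy 2.4.6, pandas 2.3.3 and matplotlib 3.10.9.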

Additional observations from a re-analysis of the deposited data

How the results depend on the processing

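The count of 25 marked members was the same with windows of 500 and 2000 bp, with minimum −log10 q values of 2 and 5, in the authors' replicated and pooled sets, and with either replicate left out. When a peak of both replicates had to cover the 5' end base itself, 11 members were marked against 20.0% of all genes, with 26 further redox genes, a median value of 12.1 and a median width of 2590 bp. That setting lost 14 members, and the gene span gained 4. The median value of the members was 14.1 in both the replicated and the pooled set, 12.8 as a width-weighted mean over the window, and 13.7 to 13.9 with a replicate left out. The median width was 2611 bp over the gene span, 2629 and 2423 bp at minimum −log10 q values of 2 and 5, 2595 bp in the replicated set, 2733 bp in the pooled set, and 1893 and 3058 bp with gaps of 0 and 3000 bp joined. It was 2717 to 2722 bp with a replicate left out. Without the 3 members whose domain holds another protein-coding 5' end, a choice made after seeing the data, the medians were 13.6 and 2600 bp. The share of members with the element's core was 17.2% in the upstream 250 bases alone, against 14.0% of the marked genes in the table. Of 211 values of single members under the alternatives that keep both replicates, 20 moved by more than the SD of the replicates, a bar that is wide for members whose replicates differ, such as Gclm and Sod1. Many of these values could hardly move, since other windows and q limits often keep the same highest peak. The replicated and pooled sets gave each marked member the same value, so they count as 1 alternative. The count is therefore a weak measure of stability. No paired analysis was possible because there is only 1 group.

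Every value rests on 2 replicates of 1 line. The deposited peaks hold no depth, so a gene without a peak was not detectable as marked at a depth and threshold that are unknown. A single 5' end per gene misses starts inside genes, and the mark at shared promoters cannot be divided between genes.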
